A study of Mus musculus with 2 samples.

Results

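Near intergenic peaks are sites of open chromatin that lie outside every annotated gene body but close to a gene. They were taken as the DNase-seq peaks outside all gene bodies of GENCODE M21, of any gene type, whose nearest base lay over 1 kb and at most 50 kb from the nearest transcription start site. Whole spleen of male B6CASTF1/J mice, an F1 strain of C57BL/6J and CAST parentage, was taken at 14 days of age, in 1 group of 2 libraries with no treatment and no control group. Per the labels, replicate 1 came from 3 males pooled and replicate 2 from 1 male, under 1 shared donor entry. The rule picked 10119 of 48286 peaks in replicate 1 (21%) and 5016 of 28837 in replicate 2 (17.4%), a mean share of 19.2 ± 2.52% (SD, n = 2). These members of the set covered 1.78 Mb in replicate 1 and 0.838 Mb in replicate 2, with median widths of 180 and 160 bases. All coordinates are on mm10 and counted from 1.

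DNase I cuts DNA that is free of nucleosomes, so its cut sites mark promoters, enhancers and insulators. Intergenic sites near genes can be enhancers, which bind cell type factors such as GATA1 in red cell precursors, PU.1 in myeloid and B cells and EBF1 in B cells. Others bind CTCF, the zinc finger protein that stops cohesin and sets the borders of chromatin loops, and some are start sites that an annotation lacks. A footprint is a short stretch inside a peak that is cut less than its flanks, as under a bound protein. The young mouse spleen holds lymphocytes, macrophages and stroma and still makes red cells.

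For 8 motifs, the strongest member called in both libraries with the motif inside a footprint of both is shown here, since the results below turn on these motifs. The letters are those of the C57BL/6J reference (RefSeq GRCm38, the assembly of mm10), and the CAST allele of these F1 mice may differ. Each is written 5′ to 3′ on the strand that carries the motif, with the motif in capitals.
CTCF, 8775 bases downstream of the lincRNA gene Gm44738: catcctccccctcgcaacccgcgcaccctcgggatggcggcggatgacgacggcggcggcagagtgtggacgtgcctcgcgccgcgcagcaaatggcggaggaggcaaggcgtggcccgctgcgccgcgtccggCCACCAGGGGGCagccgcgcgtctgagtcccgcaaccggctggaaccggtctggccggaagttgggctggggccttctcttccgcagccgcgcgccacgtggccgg
GATA, upstream of Stard10: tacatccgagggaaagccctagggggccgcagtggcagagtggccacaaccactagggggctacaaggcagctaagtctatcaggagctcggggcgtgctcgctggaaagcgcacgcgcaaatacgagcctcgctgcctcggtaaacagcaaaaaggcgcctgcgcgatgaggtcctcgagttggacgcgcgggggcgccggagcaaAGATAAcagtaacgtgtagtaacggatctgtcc
TAL1-GATA composite, upstream of Tmem222: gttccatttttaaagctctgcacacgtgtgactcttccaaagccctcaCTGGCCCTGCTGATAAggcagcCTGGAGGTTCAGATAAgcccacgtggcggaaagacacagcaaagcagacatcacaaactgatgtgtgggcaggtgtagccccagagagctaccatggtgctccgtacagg
EBF, upstream of Zfp395: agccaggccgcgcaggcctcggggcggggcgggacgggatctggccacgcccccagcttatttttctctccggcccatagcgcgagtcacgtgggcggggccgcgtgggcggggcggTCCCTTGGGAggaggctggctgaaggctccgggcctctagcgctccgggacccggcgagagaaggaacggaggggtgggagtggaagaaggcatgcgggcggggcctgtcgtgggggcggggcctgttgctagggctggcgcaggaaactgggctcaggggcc
RUNX, upstream of Pak3: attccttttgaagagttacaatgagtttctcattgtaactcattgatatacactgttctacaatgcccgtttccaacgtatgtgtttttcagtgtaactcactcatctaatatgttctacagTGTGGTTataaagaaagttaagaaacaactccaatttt
AP-1, upstream of Gclc: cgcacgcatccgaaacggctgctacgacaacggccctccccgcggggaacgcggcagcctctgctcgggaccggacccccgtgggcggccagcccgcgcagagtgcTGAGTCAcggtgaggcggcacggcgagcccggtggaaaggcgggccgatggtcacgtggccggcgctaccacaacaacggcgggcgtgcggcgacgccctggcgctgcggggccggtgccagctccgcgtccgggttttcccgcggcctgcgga
NFY, downstream of Scd1: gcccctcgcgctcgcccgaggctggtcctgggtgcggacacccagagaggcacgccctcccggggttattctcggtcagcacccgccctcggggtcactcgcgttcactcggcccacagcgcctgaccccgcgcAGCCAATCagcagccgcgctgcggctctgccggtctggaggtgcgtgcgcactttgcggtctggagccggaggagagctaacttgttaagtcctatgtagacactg
NRF1, downstream of Ccne1: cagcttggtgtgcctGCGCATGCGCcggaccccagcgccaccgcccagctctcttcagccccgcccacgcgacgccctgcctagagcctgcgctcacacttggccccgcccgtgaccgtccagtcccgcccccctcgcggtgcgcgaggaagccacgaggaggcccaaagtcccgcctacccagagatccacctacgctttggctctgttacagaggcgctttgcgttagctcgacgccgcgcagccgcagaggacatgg
The CTCF site (chr7:73618421-73618660, minus strand) had a signal of 21.9 in replicate 1 and 14.5 in replicate 2, and its footprint was 45 bases long in both. The GATA site (chr7:101310741-101310980, plus strand) lay 6106 bases upstream of Stard10, a lipid transfer protein gene, with signals of 14.9 and 9.29. It also held a CTCF match, not in capitals here, in a footprint of both libraries. A pair of TAL1-GATA matches shared the site near Tmem222 (chr4:133286061-133286240, minus strand), where the signal was 2.23 and 1.48 and the footprint at the second match was 34 bases long in both libraries. The EBF site (chr14:65343681-65343960, plus strand) lay 14429 bases upstream of Zfp395, a zinc finger gene, with 31.1 and 18.1. The RUNX site (chrX:143482981-143483140, plus strand) lay 35451 bases upstream of Pak3, a signalling kinase gene, and had 43.9 and 13.2. Repeat sequence made up 31.9% of its bases. The AP-1 site (chr9:77750641-77750900, plus strand) lay 3635 bases upstream of Gclc, the catalytic subunit of the first enzyme of glutathione synthesis, with 10.5 and 6.05. The NFY site (chr19:44388521-44388760, minus strand) lay 17930 bases downstream of the start of Scd1, a fatty acid desaturase gene, with 21.4 and 10.7. The NRF1 site (chr7:38084881-38085140, plus strand) lay 14229 bases downstream of the start of Ccne1, the cyclin E1 gene, with 27.2 and 14.0. All 8 sites had the higher signal in replicate 1. Of the peaks of replicate 1 called in both libraries, 88.5% did so, and 77.9% of such members.

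The libraries differed in ways that bear on the results. The authors' signal has no stated scale and the read depth is unknown, so every ratio between libraries takes both to be on 1 scale. Replicate 2 held 18 runs of at least 10 members with gaps of at most 2 kb, and replicate 1 held none. These runs took 288 members of replicate 2 (5.74%), with a median signal of 0.220, against 1.39 for its other members. Only 6.60% of the members in runs overlapped a peak of replicate 1, against 90% of the others. Comparisons with the rest that moved by over 1.5 times in replicate 2 when these runs were left out of the members, which were sharing and footprints, are given both ways. With 2 libraries the smallest p of the exact permutation test, which swaps the members and the rest within a library (two-sided), is 0.5. No comparison below could therefore reach 0.05, and the spread between the libraries may in part be technical.

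The nearer to a start site, the denser the members. In replicate 1 there were 19.1, 15.9, 13.1, 10.5, 7.54 and 4.76 members per Mb of intergenic territory at 1 to 2, 2 to 5, 5 to 10, 10 to 20, 20 to 30 and 30 to 50 kb. The same bins held 9.59, 7.99, 6.91, 5.12, 3.74 and 2.04 per Mb in replicate 2, so the order of the bins was the same in both. The density at 1 to 5 kb was 2.79 times that at 20 to 50 kb in replicate 1 (16.7 and 6.00 per Mb) and 3.01 times in replicate 2 (8.4 and 2.79 per Mb), a mean of 2.90 ± 0.156 (SD, n = 2). The median signal declined less, with 1.31 in replicate 1 and 1.55 in replicate 2 at 1 to 2 kb and 0.957 and 1.09 at 30 to 50 kb. Median signals just inside and just outside the limits of the rule were close: members at 1.0 to 1.5 kb had a median signal of 1.33 and 1.56, and intergenic peaks at 0.5 to 1.0 kb had 1.42 and 1.59. At the upper limit, members at 45 to 50 kb had 0.881 and 1.18, and peaks at 50 to 55 kb had 0.810 and 1.21. The shared percentage was 45.5 and 90.7 just inside the lower limit and 49.8 and 86.9 just outside it. At the upper limit it was 28.8 and 79.2 for members and 33.3 and 100 for peaks outside, with 53 and 48 peaks behind the values of replicate 2. CTCF motifs, described below, did not thin out with distance: 12% and 17.3% of members held one at 1 to 2 kb, and 12.9% and 17.7% at 30 to 50 kb.

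**Figure D1:**
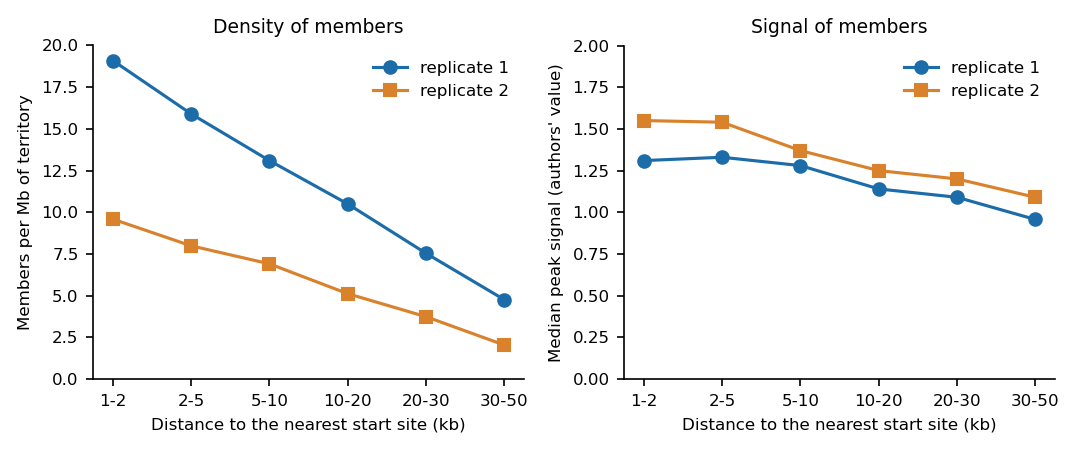
Density of the near intergenic peaks per Mb of intergenic territory (left) and the median of the authors' signal (right), by distance to the nearest start site in kb, with 1 line per library. Density fell at every step in both libraries, to 4.76 and 2.04 per Mb in the last bin, while the median signal of the last bin was 0.957 and 1.09.

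Close members lay mostly upstream of the start site. The upstream share was 82.1% and 81.3% at 1 to 2 kb, 59.3% and 57.7% at 5 to 10 kb, and 51.1% and 52.2% at 20 to 30 kb. The gene itself lies downstream of its start and is left out by the rule, and the part this has in the share was not tested. Over all distances 60.2% and 59.8% of members lay upstream. The nearest start belonged to a protein-coding gene for 51.6% of members in replicate 1 and 53.7% in replicate 2, to a processed pseudogene for 15.9% and 14.8%, and to a lincRNA for 15.1% and 13.5%. Members next to protein-coding starts had a median signal of 1.29 and 1.42, above the 1.05 and 1.15 next to processed pseudogenes in both libraries. A protein-coding start lay within 50 kb of 81.4% and 84.4% of members.

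Near intergenic peaks were weaker than the other peaks as a whole, close in signal to intronic and exonic peaks and stronger than intergenic peaks further from genes. Their median signal was 1.20 in replicate 1 and 1.33 in replicate 2, with middle ranges of 0.789 to 2.02 and 0.903 to 2.08. Over the median of the rest, the ratio was 0.749 and 0.675 (mean 0.712 ± 0.0522, SD, n = 2; exact permutation test, two-sided, p = 0.5). Peaks within 1 kb of a start site, with medians of 2.63 and 2.67, made up most of the rest. Against intronic peaks (1.12 and 1.25) the ratio was 1.08 and 1.06, against exonic peaks (1.28 and 1.42) 0.941 and 0.943, and against intergenic peaks beyond 50 kb (0.806 and 0.952) 1.49 and 1.40. Each of these kept its direction in both libraries (exact permutation test, two-sided, p = 0.5 for each). With start sites left out of the rest, an alternative chosen after seeing the data, the ratio turned to 1.07 and 1.06.

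The share of members called in both libraries depended on the library it was counted in. Of the members of replicate 1, 4257 (42.1%) overlapped a peak of replicate 2 by at least 1 base, where 53.1% of all peaks of replicate 1 did so. Of the members of replicate 2, 4272 (85.2%) overlapped a peak of replicate 1, where 89.1% of all its peaks did so. Members stood 13.9 percentage points below the rest in replicate 1, where the shares were 42.1% and 56.0%. In replicate 2 they stood 4.76 points below it, with 85.2% and 89.9% (exact permutation test, two-sided, p = 0.5). With the dense runs left out of the members and the rest kept whole, an alternative chosen after seeing the data, members of replicate 2 stood 0.0286 points above the rest (90% and 89.9%), and the mean moved to -6.95. With start-site peaks left out of the rest, members stood above it by 8.29 and 1.02 points. Against intronic peaks the difference was 9.74 points in replicate 1 and -0.547 in replicate 2, so the libraries did not give the same direction (exact p = 1). Against exonic peaks it was -0.996 and 5.64 points, again of opposite directions (exact p = 1). Against intergenic peaks beyond 50 kb members were shared more often, by 13.0 and 6.94 points (exact p = 0.5). The larger peak list of the other library held 63.7% and 87.0% of members, where it held 71.1% and 90.2% of all peaks. A base at a false discovery rate of at most 0.001 in the other library lay under 44.3% and 85.8% of members, where it lay under 55.8% and 92.5% of all peaks.

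**Figure D2:**
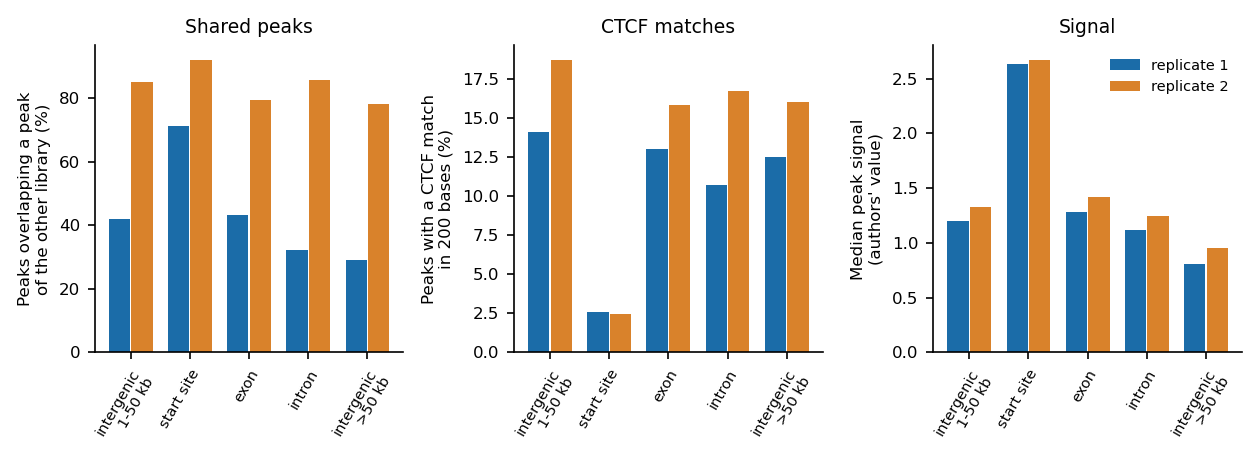
Share of peaks that overlap a peak of the other library (left, percent), share with a CTCF motif match in 200 bases (middle, percent) and median of the authors' signal (right), for near intergenic peaks and 4 other classes, with 1 bar per library. Near intergenic peaks had the highest CTCF share in both libraries (14.1% and 18.7%) and a median signal (1.20 and 1.33) far under that of start-site peaks (2.63 and 2.67).

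Members held at least 1 footprint slightly more often than the rest, but had fewer footprints per peak. At least 1 footprint lay in 94.1% of members of replicate 1 and 90.9% of replicate 2, against 88.3% and 87.9% of the rest (differences of 5.86 and 2.96 points, exact p = 0.5). Without the dense runs among the members, the difference in replicate 2 was 5.66 points. With start-site peaks left out of the rest it was 1.20 and 0.306 points. Against intronic peaks the difference was 0.983 and -0.171 points (exact p = 1), and against intergenic peaks beyond 50 kb it was 4.40 and 5.15 (exact p = 0.5). The mean number was 2.55 and 2.54 per member, against 2.94 and 3.11 per peak of the rest, and both had 14.6 and 15.2 footprints per kb. Footprints covered 20.9% and 24.0% of the bases of members. No footprint lay in 592 members of replicate 1 and 458 of replicate 2.

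Of the motifs searched, CTCF differed most in percentage points between members and the rest. By ratio, several promoter motifs differed more, in the other direction, the GC box, ETS and NRF1 sites described below among them. The CTCF consensus was searched on both strands in the 200 bases centred on each peak. It was found in 14.1% of members of replicate 1 and 18.7% of replicate 2. The rest held it in 6.05% and 6.16%, and all peaks in 7.74% and 8.34%. The difference from the rest was 8.07 and 12.5 points (mean 10.3 ± 3.16, SD, n = 2; exact permutation test, two-sided, p = 0.5). Start-site peaks held it in 2.58% and 2.48%, intronic peaks in 10.7% and 16.7%, exonic peaks in 13.0% and 15.8% and intergenic peaks beyond 50 kb in 12.5% and 16%. With start-site peaks left out of the rest the difference was 2.99 and 2.19 points, smaller but of the same direction in both libraries. The matches sat almost wholly in footprints, as in the sequence shown near Gm44738. Of the CTCF matches in members, 93.9% and 98.5% lay inside a footprint widened by 5 bases. These footprints had a median length of 29 and 30 bases, against 11 and 12 for all footprints in members, and 88.6% and 93.8% of them were at least 20 bases long, against 23.6% and 30.2%.

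Members with CTCF in a footprint were shared between the libraries more often than the other members. There were 1344 in replicate 1 and 924 in replicate 2, with a median signal of 1.38 and 1.56, against 1.17 and 1.29 for the other members. The other library shared 67.5% and 98.9% of them, against 38.2% and 82.1% of the others. This held at like signal. Between signals of 1 and 2 in replicate 1, 75.5% of the members with CTCF were shared, against 36.8% of those without. Between 0.5 and 1 the shares were 28.2% and 10.5%, and between 2 and 4 they were 94.6% and 79.4%. In replicate 2, where nearly all stronger members were shared, the shares between 0.5 and 1 were 98.6% with CTCF and 89.5% without.

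Several motifs of blood cell factors were more frequent in members than in the rest, by smaller margins in percentage points than CTCF. The first 5 given here were no more frequent than in intronic peaks. In all, 22 motifs were searched, on both strands in the same 200 bases. AGATAA, read by GATA factors, lay in 11.2% and 7.85% of members, against 7.63% and 4.62% of the rest and 8.39% and 5.18% of all peaks. TGTGGTT, read by RUNX factors, lay in 7.28% and 5.32% against 4.86% and 3.11% (all peaks 5.37% and 3.50%). The AP-1 site TGANTCA lay in 7.04% and 5.70% against 4.73% and 3.47% (all peaks 5.22% and 3.86%). The E-box CAGGTG lay in 20.7% and 22.0% against 17.5% and 16.3% (all peaks 18.2% and 17.3%), and 11.1% and 15.1% of its matches in members overlapped a CTCF match. The PU.1 site GAGGAAGT was close to the rest, with 5.07% and 2.69% against 4.04% and 2.35% (all peaks 4.25% and 2.41%). Intronic peaks held GATA in 12.8% and 9.76%, RUNX in 7.92% and 6.19%, AP-1 in 7.05% and 6.51%, the E-box in 20.9% and 22.9% and PU.1 in 5.86% and 3.32%, each at or above the share of members. Start-site peaks, most of the rest, were lower, with GATA in 4.43% and 3.11% and RUNX in 3.03% and 2.24%. The differences of the 5 motifs from the rest had 1 direction in both libraries and were not tested.

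Promoter motifs were scarce among members, as in the other classes away from start sites. The GC box GGGGCGGGG, read by SP and KLF factors, lay in 2.31% and 2.67% of members, against 9.39% and 13.1% of the rest (all peaks 7.91% and 11.3%). The ETS site CCGGAAGT lay in 0.909% and 0.678% against 3.01% and 4.27% (all peaks 2.57% and 3.65%). The NFY site AGCCAATC lay in 0.889% and 1.14% against 2.35% and 2.98% (all peaks 2.05% and 2.66%), and the NRF1 site (GCGCA followed by TGCGC) in 0.188% and 0.279% against 0.820% and 1.29% (all peaks 0.688% and 1.11%). Start-site peaks held the GC box in 14.4% and 17.0%, while intronic peaks held it in 2.03% and 2.18%, exonic peaks in 2.49% and 3.1% and intergenic peaks beyond 50 kb in 1.65% and 2.38%. ETS lay in 0.630% and 0.592% of intronic peaks. In members, 90.9% and 100% of the NRF1 matches lay in a footprint, 60.6% of the GC box matches in both libraries, 44.4% and 42.4% of the ETS matches and 36.6% and 39.7% of the NFY matches. Of the GATA matches 29.3% and 23.5% lay in one, of the RUNX matches 28.2% and 24.4%, and of the PU.1 matches 14.7% and 17.8%.

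Between the libraries, the motifs split the members called in both. Of the 4257 members of replicate 1 that overlapped a peak of replicate 2, 4253 overlapped a member there. The Pearson correlation of their log2 signals was 0.837 across 4246 sites, a description across sites that are not independent. The signal was higher in replicate 1 at 77.9% of them, where it was at 88.5% of all peaks of replicate 1 called in both and at 78.6% of the intronic ones, with a median ratio of 1.28 and a median shift of the peak centre of 10 bases. On the log2 scale the median ratio, replicate 1 over replicate 2, was 0.36 for the members of either library, 0.25 below the rest in both. With start-site peaks left out of the rest, the difference was -0.0378 and -0.0417. A signal more than 2 times that of replicate 2 was found at 677 of the 4257 members (15.9%), where 15.7% of all peaks called in both had it. A signal under 50% of that of replicate 2 was found at 7 (0.164%, against 0.0702% of all such peaks).

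CTCF members had a low ratio and GATA members a high one. With CTCF in a footprint the median log2 ratio was 0.15 over the members of replicate 1 and 0.15 over those of replicate 2, against 0.44 and 0.45 without it. With GATA in a footprint it was 1.01 over 135 members and 0.80 over 80. EBF (TCCC and GGGA with 2 letters between), with 0.88 over 36 and 0.89 over 25, and NFY, with 1.01 over 21 and 0.97 over 22, lay as high. PU.1 had 1.00 over 22 and 0.72 over 20, AP-1 0.72 over 83 and 0.59 over 64, and the GC box 0.67 over 103 and 0.67 over 87. RUNX, with 0.66 over 79 and 0.33 over 59, moved with the library that defined the footprint. Footprints were called in each library by itself, so a footprint of replicate 1 can favour sites that are high there. The 200-base window does not use them, and GATA then had 0.70 and 0.68, against 0.34 and 0.34 for members without GATA. The TAL1-GATA composite (CTG and GATAA with 8 letters of any kind between), which holds most of a GATA site, had 1.09 over 46 members of replicate 1 and 1.09 over 42 of replicate 2.

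**Figure D3:**
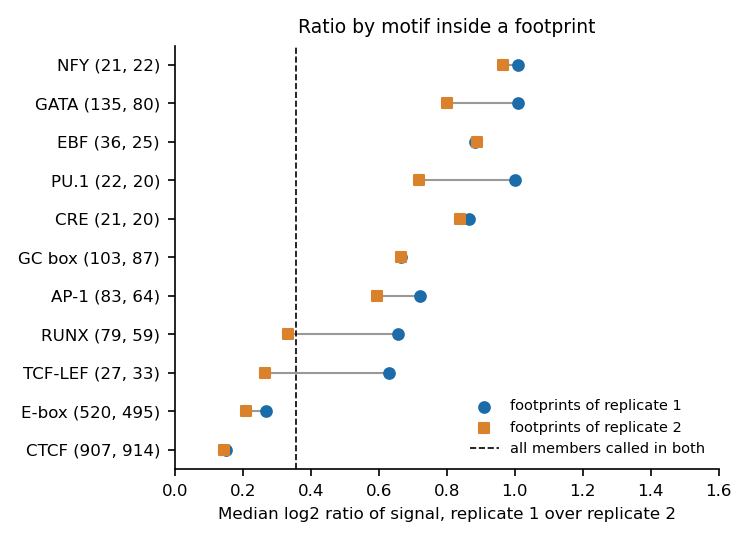
Median log2 ratio of signal, replicate 1 over replicate 2, of near intergenic peaks called in both libraries that hold the named motif inside a footprint of replicate 1 (circles) or replicate 2 (squares), with the number of peaks in brackets. The dashed line is the median of all near intergenic peaks called in both; CTCF lay left of it at 0.15 and GATA right of it at 1.01 and 0.80.

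Within bins of signal above 1 in replicate 1, the ratio had the order CTCF, no CTCF, GATA. Between signals of 1 and 2 the medians were 0.13 with CTCF, 0.27 without it and 0.48 with GATA in a footprint. Between 2 and 4 they were 0.24, 0.66 and 1.08, and above 4 they were 0.35, 0.79 and 1.42. Below a signal of 1 in replicate 1, where few were shared, the order did not hold: between 0.5 and 1 the medians were -0.24, -0.15 and -0.16. By bins of signal in replicate 2 it held between 2 and 4, with 0.12, 0.36 and 0.61, but not above 4, where the 8 members with GATA had 0.34, under the 0.49 of those without CTCF. In whole tissue, more cells of a type and more accessible chromatin per cell cannot be told apart, and the pooled and single animals of the 2 libraries differ too.

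**Figure D4:**
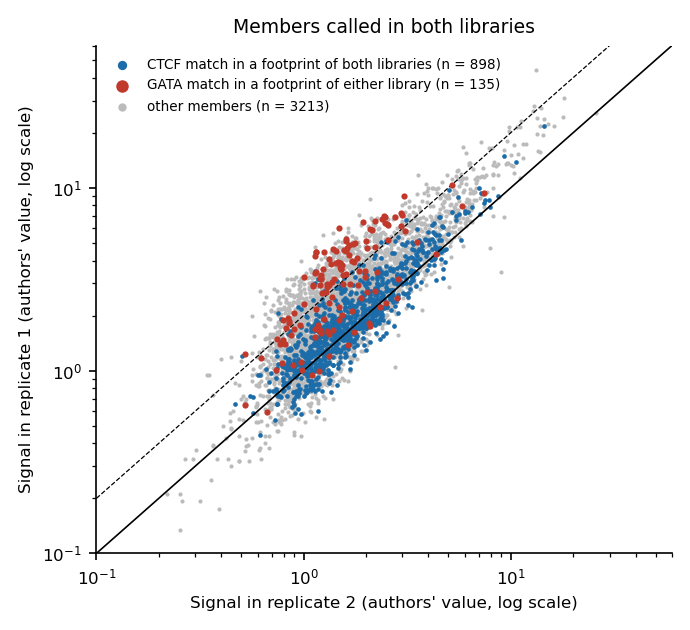
The authors' signal in replicate 1 (upright axis, log) and in replicate 2 (level axis, log) at near intergenic peaks called in both libraries, coloured by motif. The groups are CTCF in a footprint of both libraries (898 points), a GATA match in a footprint of either among the remaining points (135) and all others (3213). Peaks that meet both motif rules are counted as CTCF alone. The solid line marks equal signal and the dashed line a signal in replicate 1 that is 2 times that in replicate 2; CTCF points lie near the solid line and many GATA points near the dashed one.

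Members called in 1 library alone were weak and poor in CTCF. There were 5862 in replicate 1 (57.9%) and 744 in replicate 2 (14.8%). Members called in both made up the other 42.1% and 85.2%, where 53.1% and 89.1% of all peaks were called in both. The median signal of members called in 1 library alone was 0.898 in replicate 1 and 0.244 in replicate 2. Shared members of the same library had 2.09 and 1.5. CTCF lay in 8.68% and 1.75% of the members called in 1 library alone, against 21.6% and 21.7% of the shared ones. The sets differed in PU.1, which lay in 6.77% of the members of replicate 1 alone and 2.72% of its shared ones, but in 1.34% and 2.93% in replicate 2. GATA had the same pattern, with 12.8% and 9.07% in replicate 1 and 5.24% and 8.31% in replicate 2. Of the members of 1 library alone, 37.3% and 12.8% were in the larger list of the other library. No listed false discovery rate, which runs to 0.05, was present in the other library at 3376 and 614 of them. In replicate 2, the members called there alone included most of the 288 in dense runs, of which 6.60% were shared. Those 288 had a median signal of 0.220 and CTCF in 1.04%. The values of replicate 2 in this comparison keep the runs.

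**Figure D5:**
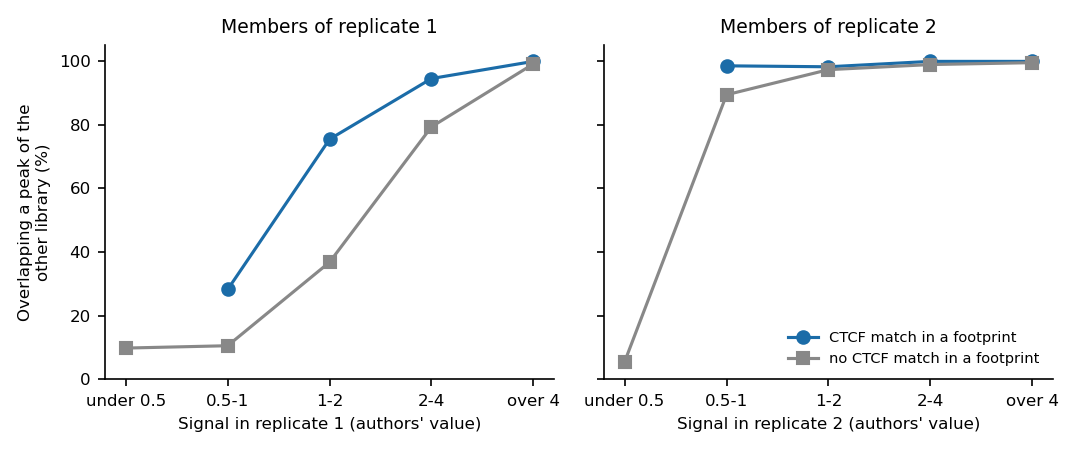
Share of near intergenic peaks that overlap a peak of the other library (percent), by bins of the authors' signal, with CTCF in a footprint and without it, for each library; bins with under 20 peaks are left out. In replicate 1 between signals of 1 and 2 the share was 75.5% with CTCF and 36.8% without it.

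Genes of most blood cell lists, and most of all housekeeping genes, had members near them more often than protein-coding genes at large, by count. Of 21938 protein-coding genes, 4758 (21.7%) in replicate 1 and 2779 (12.7%) in replicate 2 were the nearest protein-coding gene of a member, and 2705 (12.3%) in both. In the red cell list it was 16 and 9 of 29 genes (55.2% and 31%), in the B cell list 14 and 11 of 26 (53.8% and 42.3%), and in the T cell list 12 and 9 of 23 (52.2% and 39.1%). Macrophage genes numbered 6 and 3 of 19 (31.6% and 15.8%), granulocyte and monocyte genes 6 and 4 of 17 (35.3% and 23.5%) and dendritic cell genes 4 and 2 of 12 (33.3% and 16.7%). Stem and progenitor genes numbered 4 and 4 of 12 (33.3% in both) and megakaryocyte genes 3 and 2 of 14 (21.4% and 14.3%). Natural killer genes numbered 2 and 1 of 12 (16.7% and 8.33%), and stromal and endothelial genes 5 and 1 of 22 (22.7% and 4.55%). Housekeeping genes numbered 9 and 8 of 14 (64.3% and 57.1%). Among lists of other organs, hepatocyte genes numbered 0 and 0 of 12 and neuron genes 2 and 2 of 12 (16.7% in both). Skeletal muscle genes numbered 1 and 0 of 12 (8.33% and 0%) and pancreatic acinar genes 2 and 0 of 11 (18.2% and 0%). The neuron share in replicate 2 was above the 12.7% of all protein-coding genes. Being nearest does not show that a member acts on the gene.

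Ratios between the libraries differed by list. The 14 shared members near B cell genes had a median log2 ratio of 0.99, 0.63 above that of all members, and 10 of them lay above it. The 12 near red cell genes had 0.52, with 8 above. The 9 near T cell genes had 0.18, with 2 above, and the 15 near housekeeping genes had 0.70, with 9 above. These are counts over few sites in 2 libraries and were not tested.

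Near red cell genes, Tal1, a blood transcription factor gene, had a member 8406 bases upstream (chr4:115047821-115048020) with 5.44 in replicate 1 and 4.69 in replicate 2. Epb41, a gene of the red cell skeleton, had one 2200 bases upstream with 4.43 and 1.68. At Slc4a1, the anion exchanger gene of the red cell, chosen after its values were seen, the stronger member lay 9058 bases upstream, next to the noncoding RNA gene Bloodlinc, with 7.28 in replicate 1 and 2.42 for the peak that overlaps it in replicate 2. The Tal1 site was nearly as high in replicate 2, and the sites at Epb41 and Slc4a1 were lower there. Near B cell genes, Cd79b, a signalling chain of the B cell receptor, had a member 6049 bases downstream (chr11:106308261-106308480) with 5.86 and 2.17 and an ETS match in a footprint. Bcl6, a repressor of germinal centre B cells, had one 2429 bases upstream (chr16:23991281-23991440) with 3.97 and 3.53. Near T cell genes, Cd2, an adhesion receptor gene, had a member 7682 bases upstream with 3.91 and 3.86. A member 46021 bases upstream of Ets1, a transcription factor gene, had 4.0 and 3.15. Its nearest start was that of the lincRNA gene Gm47680, at 23252 bases.

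Among myeloid and natural killer genes, Klrb1c, the NK1.1 receptor gene, had a member 24106 bases downstream (chr6:128764161-128764380, 9.11 and 5.00) with a CRE match in a footprint. Hmox1, the heme-degrading enzyme gene of macrophages, had one 9521 bases upstream (chr8:75083901-75084100, 9.41 and 4.40) with an AP-1 match in a footprint. Cebpe, a granulocyte transcription factor gene, had one 6014 bases downstream (chr14:54705881-54706160, 7.10 and 3.00) with a GATA match. Adgre1, which encodes the macrophage antigen F4/80, had 3.37 and 2.63, and Prtn3, a granule protease gene, had 1.83 and 1.80. The named sites near the dendritic cell genes Batf3, a transcription factor, and Cd209a, a lectin, were higher in replicate 2. They had 1.53 and 1.68, at 25564 bases from the Batf3 start, and 0.655 and 1.05. Of the 5 members of replicate 1 near dendritic cell genes, these 2 alone were shared. Zbtb46 and Siglech had a member in replicate 1 alone, with 0.739 and 0.856. Gfi1b, a repressor of megakaryocytes and red cells, had 6.39 and 3.12 at chr2:28602261-28602480, and Gp1bb, a platelet receptor chain, had 2.22 and 2.68.

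The remaining lists gave Meis1, a progenitor transcription factor gene, with 3.61 and 1.57, and Zfp36l2, an RNA-binding protein gene, with 5.82 and 3.17. Pecam1, the endothelial adhesion gene, had 2.43 and 1.62 and a CTCF match in a footprint. Actb, the beta-actin gene, had 9.97 and 4.16. Slc17a7, a glutamate transporter gene of neurons, had a pair of members 1469 and 1729 bases upstream, with 4.50 and 3.56 and with 2.40 and 1.65, and a CTCF match lay in a footprint of the stronger.

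Some neighbourhoods, chosen after their values were seen, held many members. Cxcr4, the chemokine receptor that keeps precursors in the bone marrow, had 11 in replicate 1 and 2 in replicate 2. Its strongest, 31170 bases downstream (chr1:128560901-128561120), had 4.94 and 1.73 with a TAL1-GATA match in a footprint of replicate 1. Cd83, an activation antigen of B and dendritic cells, had 7 and 2, the strongest 19235 bases upstream with 5.13 and 1.47. Gata1, the master factor of red cells, had 2 in replicate 1, with 1.07 and 0.806, and none called in replicate 2. Spi1, which encodes PU.1, had 1 in replicate 1 with 2.13, and the larger list of replicate 2 held it with 0.984.

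The strongest members were mostly CpG-rich. Of the 10 strongest called in both libraries, 8 had an observed over expected CpG ratio of at least 0.6 and 5 had a protein-coding gene as the nearest. All 10 were higher in replicate 1 (log2 ratios of 0.00197 to 1.73), where 77.9% of all members called in both were. The first of the 10 was the site upstream of Pak3 shown above, with 43.9 and 13.2. Repeat sequence made up 31.9% of its bases. No other copy of it was found, but the search covered the assembled chromosomes alone. The second (chr6:49236421-49236620), 21464 bases upstream of Igf2bp3, an RNA-binding protein gene, had 25.8 in both libraries after rounding and 2 other copies in the genome at 90% identity or more. The fourth (chr3:5860361-5860530) had 24.4 and 17.9 and 15 other copies. Zfp395 (31.1 and 18.1), Ccne1 (27.2 and 14.0), Trappc9 (27.9 and 13.0), Wnt7b (26.2 and 12.8), Ptma (23.7 and 14.5), Zfp239 (21.9 and 16.1) and Slc38a2 (22.4 and 15.1) were the nearest protein-coding genes of the others.

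CpG-rich members were stronger, more often shared and more often close to a RefSeq start site. They made up 12.1% of members of replicate 1 and 18.1% of replicate 2, where they made up 36% and 52.6% of all peaks. They had median signals of 1.61 and 1.83, against 1.17 and 1.28 for CpG-poor members. They were shared at 62.5% and 94.6%, against 39.3% and 83.1%. The GC box lay in 5.56% and 6.84% of them, against 1.87% and 1.75%, and CTCF in 8.66% and 9.93%, against 14.9% and 20.6%. A start site of the RefSeq annotation, which the rule did not use, lay within 1 kb of 21.9% and 26.5% of CpG-rich members, against 6.21% and 5.74% of CpG-poor ones. In all, 820 members (8.10%) and 476 (9.49%) lay within 1 kb of a RefSeq start, with a median signal of 1.75 and 1.76. A further 1202 (11.9%) and 593 (11.8%) lay inside a RefSeq gene, and 8097 (80%) and 3947 (78.7%) lay outside both.

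Repeat sequence made up at least 50% of the bases in 647 members of replicate 1 (6.39%) and 368 of replicate 2 (7.34%). The share was 3.67% and 3.04% over all peaks and 5.86% and 6.47% over intronic ones. These members had a lower median signal, with 0.940 and 0.874, against 1.23 and 1.38 for the other members. They were shared at 31.7% and 56.8%, against 42.8% and 87.4%, and held CTCF in 4.02% and 2.45%, against 14.8% and 20%.

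Most of the genes nearest to the most members had their place through the dense runs of replicate 2. By the mean number the first 10 were Zfp36l2 (7 in replicate 1 and 23 in replicate 2), Tmem106c (1 and 25), Ptma (15 and 10), Rgs10 (2 and 22), B4galt5 (9 and 14), Hs6st1 (2 and 21), Nnmt (6 and 16), Padi2 (2 and 20), Alg8 (1 and 20) and BC034090 (0 and 20). Ptma, which encodes prothymosin alpha, was the only one of these with more in replicate 1, and 10 of its members in each library were shared. The largest run (chr17:3004683-3029020) held 45 members of replicate 2, of which 0 were shared and 57.8% had at least 50% repeat bases. A run of 23 members lay 7420 bases or more from Tmem106c (chr15:97944061-97956780), with 1 shared. The run chr12:113216061-113224486, 30131 bases or more from Tmem121 on the side of the immunoglobulin heavy chain genes, was unlike these: 8 of its 11 members were shared, the median signal was 1.84 and the highest 7.40. Without members in runs, an alternative chosen after seeing the data, Ptma led, followed by BC034090, Olfr1423 (10 and 10), Psd2 (14 and 6), Ccr1, a chemokine receptor gene (11 and 7), Rps6ka1 (10 and 8), Trim27 (10 and 8) and Wdr26 (11 and 7). The 20 members of replicate 2 near BC034090 had a median signal of 0.179, and none was shared.

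The extremes of the comparison between libraries were chosen by their values and are a description. The strongest members of replicate 1 alone lay near Ankrd9 (7.84), Zfp239 (7.65), Scd1 (4.90), Zfp36l2 (4.77) and Grina (4.06), and 0 of these 5 had another copy in the genome. All 5 held bases with a listed false discovery rate in replicate 2. It was lowest under the sites near Ankrd9 (1.58e-33) and Zfp239 (2.73e-15), which had no peak in either list of replicate 2. The larger list of replicate 2 held those near Scd1, Zfp36l2 and Grina, with signals of 1.02, 1.95 and 1.37 and rates of 0.00914, 0.00104 and 0.000670. Of the 5 strongest of replicate 2 alone, 4 had other copies. The first (chrX:170020041-170020220, 6.91) lay 9297 bases downstream of Gm21887 and had 17 others. The 5 largest ratios had log2 values of 2.04 to 2.16. The nearest protein-coding genes of these sites were Cryaa (5.53 in replicate 1 and 1.24 in replicate 2), Usp9x (2.74 and 0.618), Hdhd5 (4.72 and 1.13), Gnpda1 (8.65 and 2.10) and Bhlhe41 (3.97 and 0.968). Their start sites lay 74021, 16578, 36242, 11078 and 27903 bases away. The nearest start of any gene to the first site was that of the lincRNA gene AC166654.1, at 35664 bases. None of these 5 sites had another copy. The 5 smallest ratios (log2 -1.41 to -1.15) all had other copies, 31345 at most, and 4 of them were at least 50% repeat. The strongest of these (chrY:90744501-90744820) had 3.47 and 8.95.

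Members were unevenly spread over chromosomes. Their density on chromosome 11 was 1.98 times that on the autosomes in replicate 1 and 2.01 times in replicate 2, and on the X it was 0.312 and 0.313 times. Males have 1 copy of the X, and the part this has in its density was not tested. Chromosome 17, where the largest run lies, had 1.23 in replicate 1 and 1.65 in replicate 2. The Y had 0.0186 and 0.0778. The density of all peaks by chromosome was not set beside these values, so they are not shown to be particular to members.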

How the data were processed

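DNase-seq of 2 spleen libraries was used as deposited: per library 2 peak lists, a table of false discovery rates and a footprint list. Alignments were to mm10 and libraries were processed separately, per the labels and the deposited file descriptions. The name of an aligner or caller was not given in the sources used here, so none is stated. The signal of each peak is the authors' own value in the deposited lists, its scale is not stated, and it was used unchanged. The tables deposited by the authors give a false discovery rate, treated as a p-value, for each run of bases at or under 0.05. In the deposited footprint lists the score is constant, so only positions were used. Read depth is unknown, so no counting intervals are given.

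Results rest on the peak list of each library that has fewer bases. Distance was measured from the nearest peak base to the nearest start site of any GENCODE M21 transcript, and 21 chromosomes were used. The members, 15 gene lists and 22 motifs were chosen with earlier results of these data known. Members were compared with all other peaks of the same list by an exact permutation test within libraries. CpG-rich means an observed over expected ratio of at least 0.6. Repeat bases are the lower-case letters of the reference. Other copies were counted with BLAST 2.17.0 on the assembled chromosomes (at least 90% identity over at least 80% of the site). Named were the 10 strongest members called in both, the 10 genes with the most members, the 2 strongest per gene list, the 5 strongest of each library alone and the 5 largest and 5 smallest ratios; others are marked. One result of this rule is not reported here. Scripts ran in Python 3.11.15 with pandas 2.3.3, numpy 2.4.6 and pysam 0.24.0, and the overlap, distance and motif steps were tested on simulated data. Alternatives were the larger lists, equal numbers of peaks, the strongest 50%, peak midpoints, protein-coding genes alone, autosomes alone, no repeat-rich peaks, each library left out, and other overlaps, footprint rules, windows and distance limits. Leaving out the dense runs of members, and start-site peaks from the rest, were added after seeing the data.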

Additional observations from a re-analysis of the deposited data

How the results depend on the processing

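No paired analysis was possible because the series has 1 group, so no groups share replicate numbers. With 2 libraries the exact permutation test cannot pass 0.05, so stability below means direction alone. Start-site peaks decided the comparison with the rest: without them, an alternative chosen after seeing the data, the difference in the shared percentage reversed to 4.66 points and the signal ratio to 1.06, and the difference in median log2 ratio shrank to -0.0398. That last difference, -0.25 as reported, was -0.18 with the larger lists, -0.20 with the same number of peaks, -0.34 with the strongest 50% and -0.23 with protein-coding genes alone. The near to far density ratio, 2.90 as reported, was 2.40 with the larger lists, 3.46 with the same number of peaks, 4.65 with the strongest 50%, 2.13 with protein-coding genes alone and 3.44 for 1 to 10 kb over 30 to 50 kb. The share of members among the strongest 50% of peaks was 13.6%. Leaving out 1 library in turn gave 17.4% to 21% for the share of members, -13.9 to -4.76 points for sharing, 0.675 to 0.749 for the signal ratio, 2.96 to 5.86 points for footprints, 8.07 to 12.5 points for CTCF and 2.79 to 3.01 for density. With the larger lists the footprint difference was 0.540 points and had opposite signs in the libraries (1.78 and -0.705). The CTCF difference kept its direction in both libraries under all 13 alternatives run, from 2.59 to 14.2 points. The causes of these shifts were not tested. The unknown read depth and signal scale limit every value set across libraries.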
